A study of Mus musculus with 8 samples.

Results

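Histone acetyltransferases (HATs) and the zinc-dependent deacetylases (HDACs) that oppose them were followed through 10 genes: Ep300, Crebbp, Kat2a, Kat2b and Kat6a among the former, and Hdac1, Hdac2, Hdac3, Hdac5 and Hdac7 among the latter. They were chosen by name, with earlier results of these data known, and taken as the probe sets to which the platform annotation gives exactly 1 of these symbols. All 10 were found among 18193 genes, on 22 probe sets, and each gene was read from its probe set of highest mean log2 intensity. The cells were murine leukemic cells carrying MLL-AF9, in which the methyltransferase MLL is joined to AF9, grown in culture with cytokines. Total RNA was hybridised to 8 Affymetrix arrays in 4 groups of 2. Cells with a luciferase hairpin (shLUC), which has no mouse target, were kept in DMSO or for 6 days in 3 µM EPZ4777, which blocks the histone methyltransferase DOT1L. Cells with a hairpin against the NAD-dependent deacetylase Sirt1 (shSirt1) were kept in DMSO or for 21 days in 3 µM EPZ4777. No time is given for DMSO, so drug, time in drug and time in culture cannot be told apart between the arms. The titles carry codes: A4 and D11 in the shLUC arm, A1 and A5 in the shSirt1 arm, each once in DMSO and once in EPZ4777. What a code stands for, and whether the 2 arrays of a group were separate cultures, is not stated, so p-values measured the spread between these arrays, which may be technical.

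HATs move an acetyl group from acetyl-CoA onto lysines of histone tails, HDACs take it off, and bromodomain proteins bind the acetylated tail. Ep300 and Crebbp encode the paired coactivators p300 and CBP, which blood transcription factors such as MYB, RUNX1 and C/EBP alpha bring to enhancers. Kat2a (GCN5) and Kat2b (PCAF) are alternative catalytic subunits of the SAGA and ATAC complexes, and Kat6a (MOZ) is a MYST-family enzyme needed by blood stem cells. Hdac1 and Hdac2 are the catalytic class I pair of the SIN3, NuRD and CoREST corepressors, and Hdac3 is the class I enzyme of the NCoR and SMRT complexes. Hdac5 and Hdac7 are class IIa enzymes that bind MEF2 factors and leave the nucleus when phosphorylated.

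The results turned on Ep300, Kat2a and Kat2b, so the 250 bases before their annotated starts are shown as RefSeq gives them on build GRCm38.p6, 5′ to 3′ on the strand of the gene, with CG dinucleotides in capitals. The Ep300 stretch is chr15:81585964-81586213 (plus strand), the Kat2a stretch is chr11:100712468-100712717 (minus strand), and the Kat2b stretch, the first of 2 that the table gives for it, is chr17:53566721-53566970 (plus strand).
Ep300: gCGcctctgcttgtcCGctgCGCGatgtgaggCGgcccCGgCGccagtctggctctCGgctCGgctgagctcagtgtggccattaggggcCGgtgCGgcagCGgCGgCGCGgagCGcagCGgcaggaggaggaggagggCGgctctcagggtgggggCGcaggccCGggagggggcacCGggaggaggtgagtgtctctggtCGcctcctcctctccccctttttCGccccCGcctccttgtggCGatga
Kat2a: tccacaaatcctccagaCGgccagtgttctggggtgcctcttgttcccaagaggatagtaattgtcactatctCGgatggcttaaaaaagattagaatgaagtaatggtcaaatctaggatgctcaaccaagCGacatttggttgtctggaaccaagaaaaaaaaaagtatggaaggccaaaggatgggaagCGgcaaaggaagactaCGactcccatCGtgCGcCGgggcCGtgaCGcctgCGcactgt
Kat2b: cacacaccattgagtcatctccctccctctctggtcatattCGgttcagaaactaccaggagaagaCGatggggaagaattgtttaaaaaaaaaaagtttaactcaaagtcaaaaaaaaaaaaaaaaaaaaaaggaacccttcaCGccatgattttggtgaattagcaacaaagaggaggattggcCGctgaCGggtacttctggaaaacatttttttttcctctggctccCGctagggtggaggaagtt
The Ep300 stretch held 25 CG dinucleotides, Kat2a 11 and Kat2b 6, against a median of 6 over 32851 stretches of the same length. At least as many were present in 10.67% of all stretches for Ep300, 35.57% for Kat2a and 50.35% for Kat2b. CG reads the same on both strands, and these counts describe the letters only. The table held 7 of the 10 members, and Kat6a, Hdac1 and Hdac3 were not matched.

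Before the comparisons, the libraries were checked against their labels. Sirt1 measured 9.44 to 9.83 log2 units on the 4 shLUC arrays, 8.70 and 8.85 on the A1 arrays, and 9.54 and 9.73 on the A5 arrays. It was thus not lower on A5, and the cells are called cells labelled shSirt1 below. Dot1l measured 7.59 to 7.86 on all 8 arrays and passed no test. The summed intensity of 9 blast markers, Mpo and Kit among them, lay between 44713 and 57713 on the 8 arrays, and none of the 9 passed a test in any comparison. The arrays differed in markers of other cells. The summed intensity of 11 mature neutrophil markers was 26866 to 35044 in shLUC DMSO, 59980 to 101549 in shLUC EPZ4777, 11496 to 28797 in shSirt1 DMSO and 61011 to 104224 in shSirt1 EPZ4777. The sum of 9 macrophage markers was 2050 to 2550, 3701 to 5336, 563 to 1292 and 598 to 843 in the same order. The sum of 5 stroma markers was 446 on the A1 array in DMSO and 134 to 148 on the other 7. The sum of 4 T and NK cell markers was 112 to 127 in shLUC DMSO, 225 to 226 in shLUC EPZ4777, 98.0 to 152 in shSirt1 DMSO and 189 to 333 in shSirt1 EPZ4777. Among them Nkg7, a granule gene of cytotoxic cells, differed by 1.77 ± 0.54 in shLUC cells and 1.81 ± 0.54 in the arm labelled shSirt1, without passing (adjusted p = 0.113 and 0.209). The T cell genes did not follow it to that extent: over the 8 arrays Cd3e lay at 5.03 to 5.28, Cd3g at 2.85 to 3.12 and Cd3d at 4.66 to 5.50. Of the 4 markers 2 were higher and 2 lower with EPZ4777 in shLUC cells, and 3 and 1 in the other arm. The sums of 3 erythroid and 3 B cell markers were 90.2 to 105 and 52.2 to 85.2 over all arrays. In bulk RNA a change in the share of a cell type and a change of RNA per cell cannot be told apart.

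After 6 days in EPZ4777, shLUC cells held more Ep300 transcript, the only member past the threshold (Benjamini-Hochberg adjusted p under 0.05 in limma over all genes). Its log2 intensity was 9.34 (A4) and 9.56 (D11) in DMSO and 10.04 (A4) and 10.44 (D11) in EPZ4777. Both treated arrays lay above both control arrays, and both codes moved up, A4 by 0.70 and D11 by 0.88. Ep300 rose by 0.79 ± 0.16 (log2 difference with its standard error over 2 arrays a group; adjusted p = 0.0473 in limma), a 1.73-fold change. Its paralogue Crebbp measured 9.68 and 9.81 in DMSO and 9.66 and 9.97 in EPZ4777. The Crebbp groups overlapped, with a difference of 0.066 and a 95% interval of -0.25 to 0.38. Within each array, the change of Ep300 relative to Crebbp was 0.72 in A4 and 0.72 in D11. This ratio was read on the main probe set of each gene and was not tested. Ep300 had only 1 probe set. Of the 4 Crebbp probe sets the others gave 0.15 ± 0.14, 0.041 ± 0.18 and -0.19 ± 0.16, and none passed. The Ep300 call was close to the threshold. It was kept in 6 of 15 alternative settings, with adjusted p from 0.0303 to 0.266. It was lost after median centring (0.0513), when only the 4 arrays compared were fitted (0.0748), and without any array other than A4 in EPZ4777 (0.0639 to 0.266). The difference kept its sign in all 15, between 0.59 and 0.99.

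Of the 10 members, 1 rose, 0 fell and 9 did not pass in shLUC cells, where 3.98% of all genes passed and 1.62% passed upward. The number of genes called rested on single libraries: of 724 genes in all, 0 were called without A4 or without D11 in DMSO, and 2 without D11 in EPZ4777. The groups did not overlap for 5 members, against 52.4% of all genes. The median difference was 0.047 over the members and -0.0025 over all genes. The mature neutrophil markers moved with the drug as well: all 11 were higher in EPZ4777 in both arms, 2 of them past the threshold in shLUC cells, with medians of 2.03 there and 2.57 in the arm labelled shSirt1. Their part in the member differences was not tested.

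**Figure D1:**
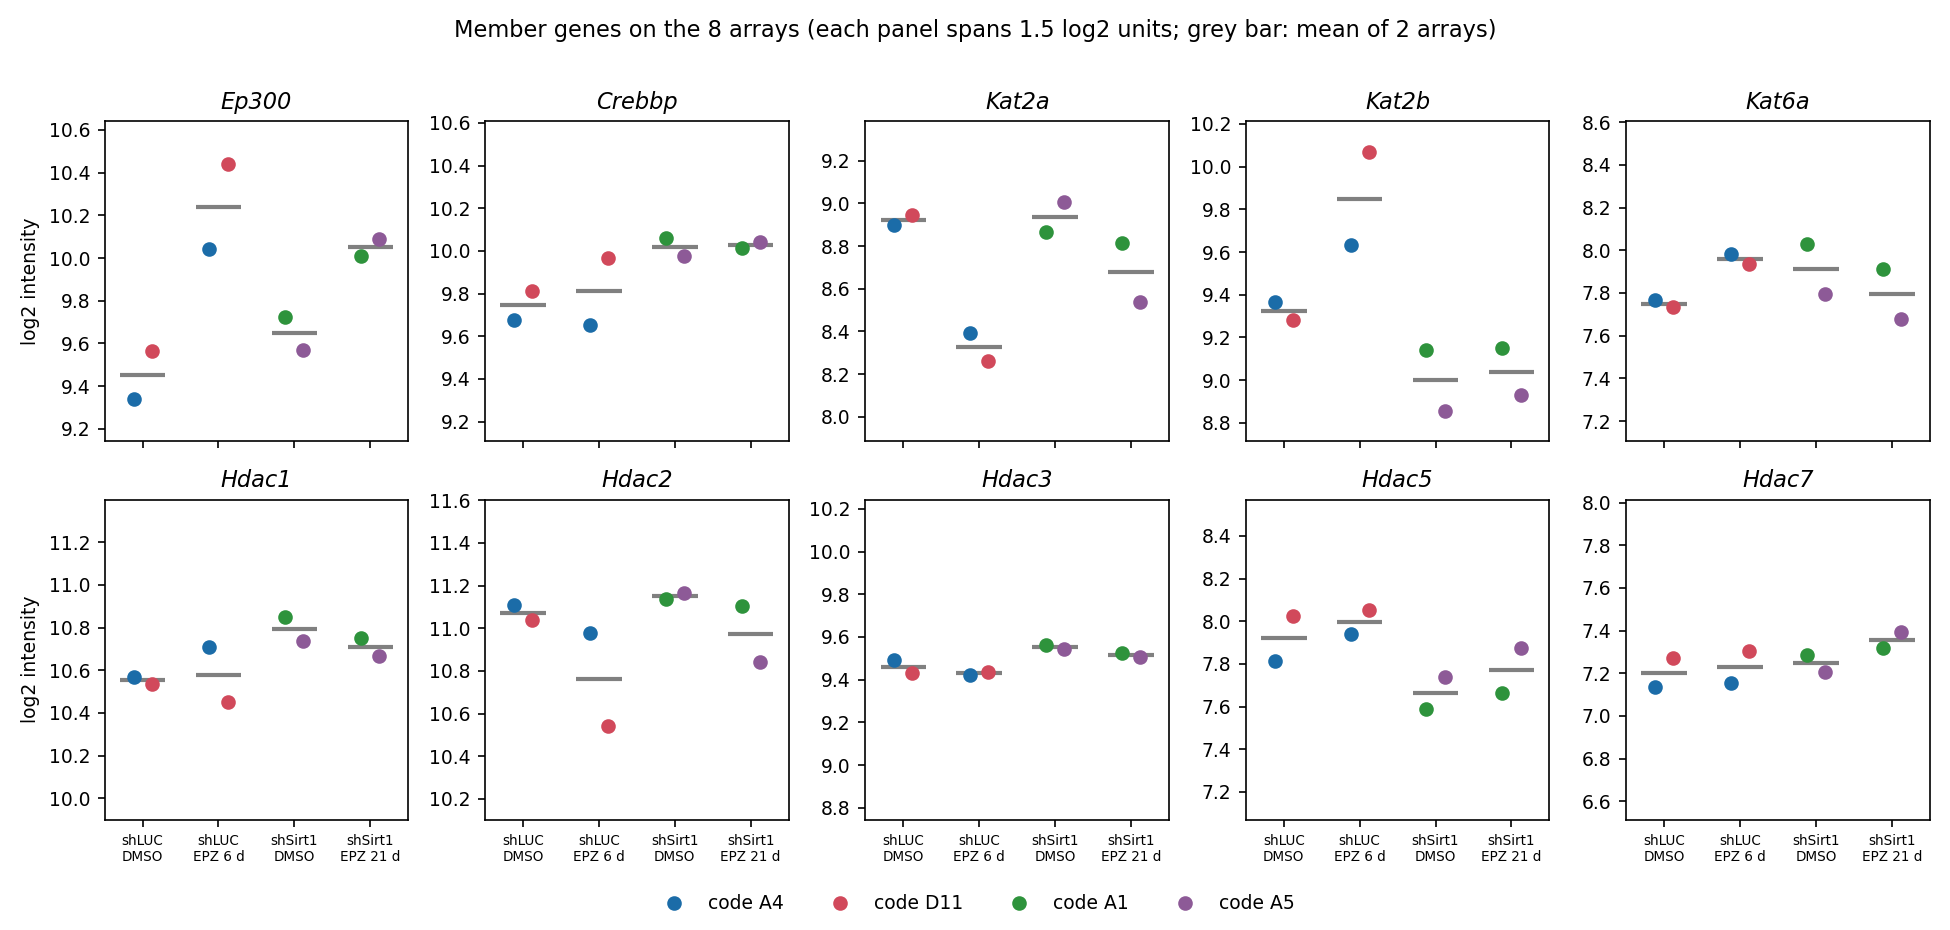
Log2 intensity (vertical axis, each panel spanning 1.5 log2 units) of the 10 members on the 8 arrays, grouped by hairpin label and agent; points are arrays coloured by code and grey bars are means of 2 arrays. Ep300 lay at 10.04 and 10.44 in shLUC EPZ4777 against 9.34 and 9.56 in shLUC DMSO, while Hdac3 spanned 0.14 over all arrays.

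The SAGA and ATAC enzymes Kat2a and Kat2b differed from their controls in opposite directions in shLUC cells, neither past the threshold. Kat2a measured 8.90 and 8.95 in DMSO and 8.39 (A4) and 8.26 (D11) in EPZ4777. Both treated arrays lay below both controls, with a difference of -0.60 ± 0.13 (adjusted p = 0.0541). Kat2a passed in 2 of 15 alternatives, after median centring (adjusted p = 0.0324) and when only genes above the median level were tested (adjusted p = 0.0329). Kat2b measured 9.37 and 9.28 in DMSO and 9.63 (A4) and 10.07 (D11) in EPZ4777. Both treated arrays lay above both controls, but D11 moved by 0.79 and A4 by 0.26, and the difference was 0.53 ± 0.18 (adjusted p = 0.144). Within each array, Kat2b relative to Kat2a changed by 0.77 in A4 and 1.47 in D11.

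The probe sets of this pair differed in size. For Kat2a the other 2 probe sets gave -0.59 ± 0.19 and -0.058 ± 0.14, so the lower value rested on 2 of 3. For Kat2b all 3 probe sets were higher in EPZ4777. In a fit over all probe sets, 3.26% of which passed, the dimmest Kat2b probe set passed with 0.64 ± 0.11 (adjusted p = 0.0356), from 3.60 and 3.56 in DMSO to 4.20 and 4.23. These values lie under the array medians of 5.21 to 5.27 over all probe sets, and no measure of background came with them, so it was not shown to be above background. The remaining one gave 0.24 ± 0.15. Kat6a measured 7.77 and 7.73 in DMSO and 7.98 and 7.93 in EPZ4777, with a difference of 0.21 ± 0.13 (adjusted p = 0.422), and 2 of its 3 probe sets had this sign.

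**Figure D2:**
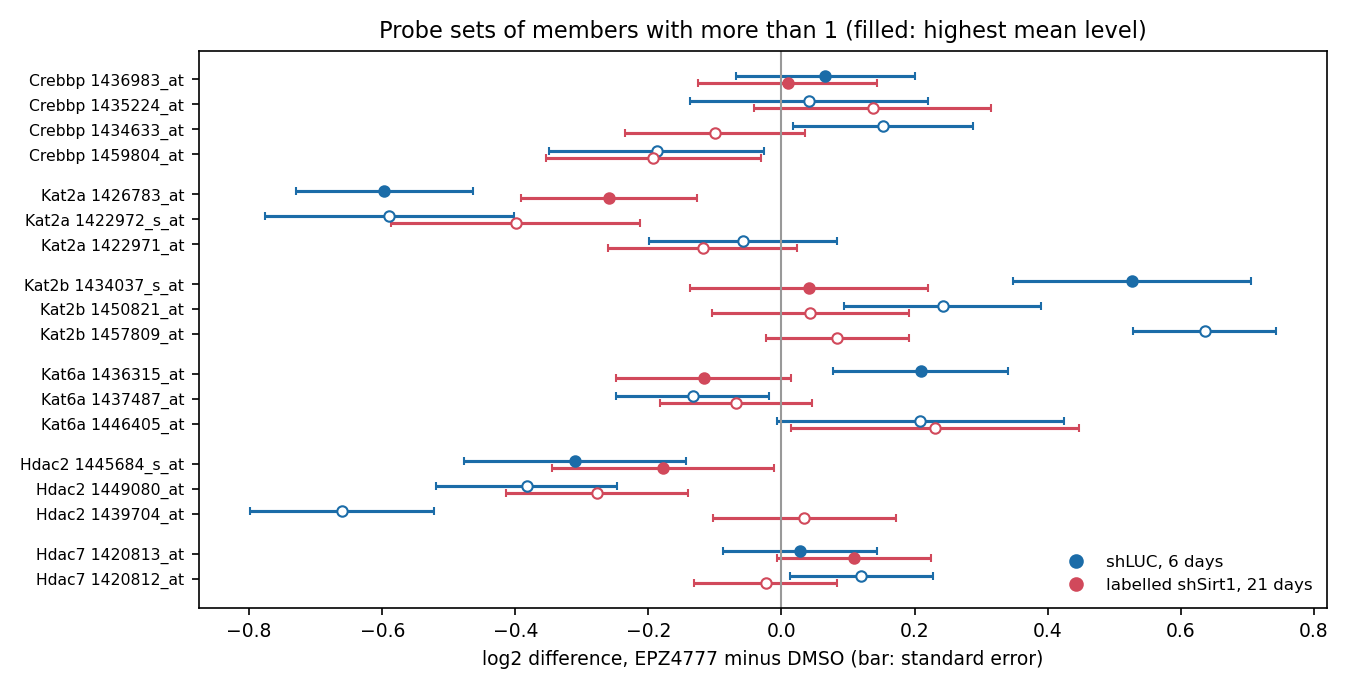
Log2 difference between EPZ4777 and DMSO (horizontal axis, bars are standard errors) for each probe set of the 6 members that have more than 1, in shLUC cells after 6 days and cells labelled shSirt1 after 21 days; filled points are the probe set of highest mean level. The 3 Kat2b probe sets lie above 0 in shLUC cells, and 1 of the 3 Kat2a probe sets, at -0.058, lies near 0.

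Among the deacetylases none passed in shLUC cells. Hdac2 measured 11.11 and 11.04 in DMSO and 10.98 (A4) and 10.54 (D11) in EPZ4777. The groups did not overlap, yet the difference of -0.31 ± 0.17 (adjusted p = 0.347) came mostly from D11. Its other 2 probe sets gave -0.38 ± 0.14 and -0.66 ± 0.14 with adjusted p = 0.171 and 0.0508. The last of these, the dimmest, lay at 4.95 to 5.85 on the 8 arrays, against array medians of 5.21 to 5.27 over all probe sets. It was not shown to be above background. Hdac1, the partner of Hdac2, measured 10.57 and 10.54 in DMSO and 10.71 and 10.45 in EPZ4777, and the groups overlapped. The interval of the Hdac1 difference was -0.26 to 0.31. Hdac3 was the member with the narrowest range over the 8 arrays, 9.42 to 9.56, and its interval in shLUC cells was -0.25 to 0.19. The class IIa enzymes Hdac5 (0.075 ± 0.13) and Hdac7 (0.027 ± 0.11) overlapped between the groups, with intervals of -0.24 to 0.39 and -0.24 to 0.29. These intervals are not a detection limit. Kat2a and Kat2b did not pass although their intervals, -0.90 to -0.29 and 0.10 to 0.95, leave out 0. With 2 arrays per group, changes of such sizes could be missed.

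**Figure D3:**
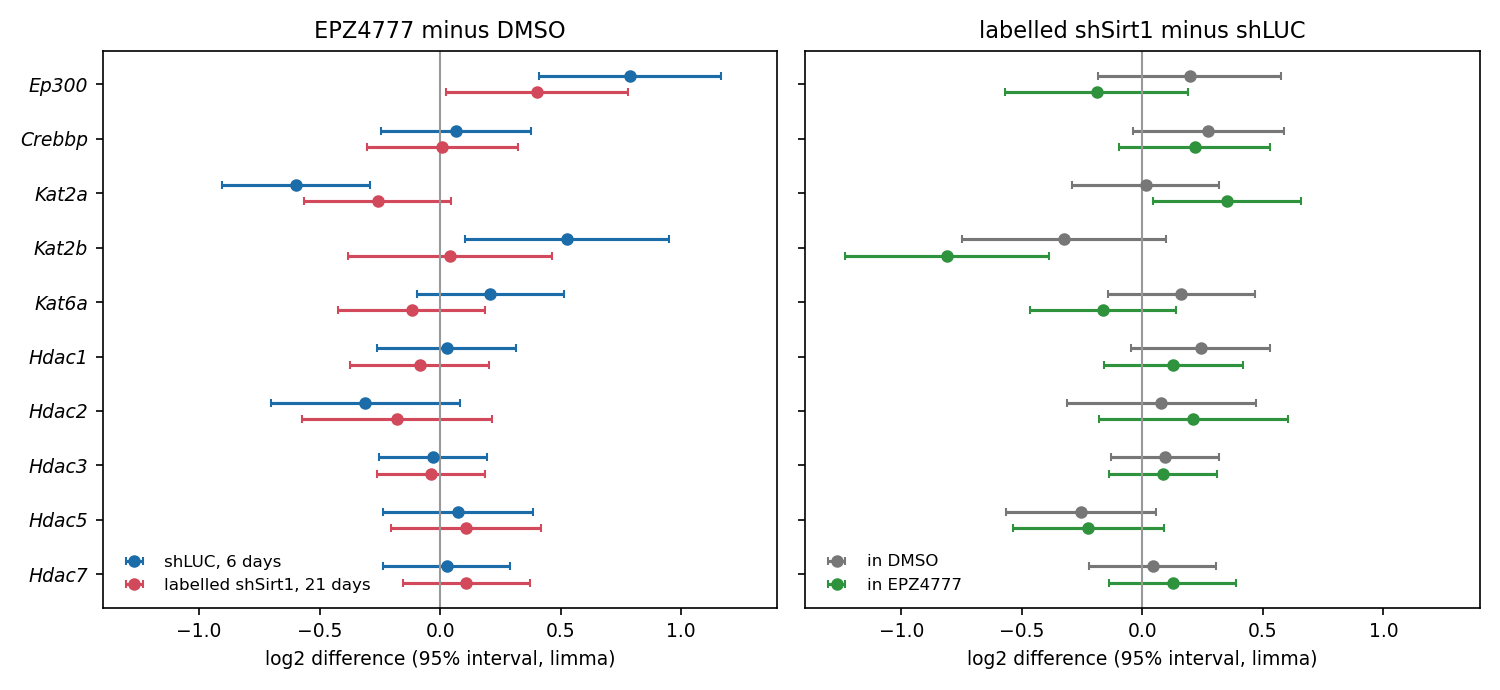
Log2 differences of the 10 members with 95% limma intervals (horizontal axis), on the left EPZ4777 minus DMSO in each arm and on the right labelled shSirt1 minus shLUC in each agent. Ep300 in shLUC cells has an interval of 0.41 to 1.17. The intervals of Crebbp, Kat6a, Hdac1, Hdac2, Hdac3, Hdac5 and Hdac7 hold 0 in all 4 comparisons.

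In cells labelled shSirt1, 21 days in EPZ4777 left 0 of the 10 members past the threshold, where 0.396% of all genes passed in limma (2876 at an unadjusted p under 0.05, 1 member among them, Ep300). Over all genes, 72 were called with all arrays, 14 without both A1 arrays and 145 without both A5 arrays. Ep300 measured 9.73 (A1) and 9.57 (A5) in DMSO and 10.01 and 10.09 in EPZ4777. Both treated arrays were again higher, by 0.28 in A1 and 0.52 in A5, and the difference was 0.40 ± 0.16 (adjusted p = 0.298). Kat2a measured 8.86 (A1) and 9.01 (A5) in DMSO and 8.81 and 8.54 in EPZ4777. Nearly all of its difference of -0.26 ± 0.13 (adjusted p = 0.382) lay in A5, which moved by -0.47 against -0.050 in A1. Kat2b measured 9.14 and 8.86 in DMSO and 9.15 and 8.93 in EPZ4777, with 0.042 ± 0.18 and overlapping groups. Kat6a moved by -0.12 in A1 and -0.12 in A5, with -0.12 ± 0.13 (adjusted p = 0.691). Hdac2 moved by -0.033 in A1 and -0.32 in A5, with -0.18 ± 0.17 (adjusted p = 0.633). The other 5 members lay between -0.085 and 0.11, and the groups of 5 of the 10 members did not overlap, against 49.0% of all genes. Without both A1 arrays, or without both A5 arrays, 0 members passed.

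The difference between the arms was tested directly as the EPZ4777 effect in cells labelled shSirt1 minus that in shLUC cells. Limma called 0 of 18193 genes, with 1221 at an unadjusted p under 0.05 and 0 members among those. The share called was 0%. Without both A5 arrays 69 genes were called, and 0 members. The largest member values were -0.48 ± 0.25 for Kat2b (adjusted p = 0.784), -0.39 ± 0.23 for Ep300 (0.808), 0.34 ± 0.18 for Kat2a (0.793) and -0.33 ± 0.18 for Kat6a (0.799). These were read on the main probe sets. In limma over all probe sets, the dimmest Hdac2 probe set gave 0.70 ± 0.20 and the dimmest Kat2b probe set -0.55 ± 0.15 (adjusted p = 0.613 each). Neither probe set was shown to be above background. Kat6a on its main probe set was higher in both shLUC codes and lower in both codes labelled shSirt1. Its interval for the difference, -0.76 to 0.11, holds 0, and its other probe sets gave 0.065 ± 0.16 and 0.022 ± 0.31. The macrophage markers moved with the arm too: their median difference was 1.78 in shLUC cells, with 6 of 9 past the threshold, and -0.17 in cells labelled shSirt1, with 0 of 9. Their part in the member values was not tested.

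Between the hairpin labels in DMSO, 0 members and 0% of all genes passed in limma, with 985 genes and 0 members at an unadjusted p under 0.05. Crebbp measured 10.06 and 9.98 in cells labelled shSirt1 against 9.68 and 9.81 in shLUC cells, a difference of 0.27 ± 0.13. Hdac1 measured 10.85 and 10.74 against 10.57 and 10.54, a difference of 0.24 ± 0.12. Hdac5 and Kat2b went the other way. Hdac5 measured 7.59 and 7.74 against 7.81 and 8.02, a difference of -0.26 ± 0.13. Kat2b had the largest difference of the members, -0.33 ± 0.18, at 9.14 and 8.86 against 9.37 and 9.28. The groups did not overlap for 8 of the 10 members, against 39.2% of all genes, but the differences ran from -0.33 to 0.27 and their adjusted p-values from 0.885 to 0.994. Without both A5 arrays 203 genes passed, and 0 members. Markers of other cells differed between the same groups, none past the threshold. All 11 mature neutrophil markers were lower in cells labelled shSirt1 (median -0.89), 7 of 9 macrophage markers were lower (median -1.03), and all 5 stroma markers were higher (median 0.74). Of the stroma markers, Col1a2, Col3a1 and Dcn measured 6.74, 6.92 and 7.27 on A1, against 5.29, 3.12 and 4.48 on A5. Col1a1 measured 4.20 on A1 and 3.96 on A5, and Sparc 5.52 and 5.86. Their part in the member differences was not tested.

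In EPZ4777, the member with the largest difference between the hairpin labels, each read on its main probe set, was Kat2b. It measured 9.15 (A1) and 8.93 (A5) in cells labelled shSirt1 against 9.63 (A4) and 10.07 (D11) in shLUC cells. The groups did not overlap, and the difference of -0.81 ± 0.18 was larger in size than that of 97.1% of genes, yet its adjusted p was 0.127, and it ran from 0.0944 to 0.350 over 16 alternatives. The dimmest of the 3 Hdac2 probe sets gave a difference of the same size in the other direction, 0.82 ± 0.14 (adjusted p = 0.0833 over all probe sets), at 5.77 and 5.83 against 5.01 and 4.95. This probe set was not shown to be above background. The other 2 Hdac2 probe sets gave 0.21 ± 0.17 and 0.16 ± 0.14. The Kat2a difference was 0.35 ± 0.13 (adjusted p = 0.310). Of the members 0 passed, where 0.308% of all genes did, and the groups of 7 did not overlap, against 39.2% of all genes. All 9 macrophage markers were lower in cells labelled shSirt1 here, 4 of them past the threshold, with a median of -2.37. The share of the Kat2b difference that goes with them was not tested.

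Over the 4 groups, mean Ep300 was 9.45 in shLUC DMSO, 9.65 in shSirt1 DMSO, 10.05 in shSirt1 EPZ4777 and 10.24 in shLUC EPZ4777. The EPZ4777 groups overlapped, and the DMSO groups came close, with the higher shLUC array at 9.56 and the lower shSirt1 array at 9.57. Mean Kat2b was 8.998 in shSirt1 DMSO, 9.04 in shSirt1 EPZ4777, 9.32 in shLUC DMSO and 9.85 in shLUC EPZ4777, and its lower 2 groups overlapped. Kat2b and Ep300 had the widest ranges of the members over the arrays, 1.21 and 1.10. The closest log2 profiles to Kat2b, each centred on its mean and compared by root mean square distance over 8 arrays, were Narf (0.086), Ehbp1 (0.11), Trim12c (0.11), Zfp809 (0.11) and Ddhd1 (0.11). The closest to Ep300 were Cds2 (0.029), Nfe2 (0.052), Tbc1d2b (0.071), Zbtb34 (0.074) and Pdik1l (0.085).

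The other genes of the acetylation machinery were read from lists drawn up by name, with earlier results of these data known. In shLUC cells the SAGA and ATAC subunits, partners of Kat2a and Kat2b, held the only calls among enzyme complexes. Of 22 measured subunits 0 rose, 3 fell and 19 did not pass, with a median of -0.17 against -0.0025 for all genes. Over all 18193 genes 3.98% passed, 295 upward and 429 downward. Usp22, the ubiquitin protease of SAGA, measured 9.06 and 9.06 in DMSO and 8.47 and 8.37 in EPZ4777. It fell by 0.64 (standard error 0.098, limma adjusted p = 0.0314), and passed in 11 of 15 alternatives. Supt3, a core SAGA subunit, measured 7.98 and 7.93 in DMSO and 7.41 and 7.35 in EPZ4777, with -0.58 ± 0.096 (adjusted p = 0.0354). Tada2a, the adaptor subunit of ATAC, measured 8.72 and 8.76 in DMSO and 8.14 and 7.83 in EPZ4777, with -0.76 ± 0.15 (adjusted p = 0.0462). Supt3 passed in 7 and Tada2a in 5 of the 15 alternatives. For each of these 3 genes both treated arrays lay below both controls. In cells labelled shSirt1 none of the 22 passed, against 0.396% of all genes, and Supt3 and Usp22 lay at 7.95 to 7.97 and 8.91 to 8.96 in EPZ4777. Tada2a measured 8.57 (A1) and 8.85 (A5) in DMSO and 8.41 and 8.24 in EPZ4777, so both treated arrays again lay below both controls. The test of the difference between the arms gave 0.59 ± 0.14 for Supt3 (adjusted p = 0.572) and 0.74 ± 0.14 for Usp22 (adjusted p = 0.456). It called none of the 22.

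Transcription factors that bind p300 and CBP held 3 rises, 0 falls and 11 genes that did not pass among 14 measured in shLUC cells, with a median of 0.23. Over all genes 1.62% passed upward there. Runx1, a master factor of blood formation, measured 8.71 and 8.59 in DMSO and 9.75 and 9.84 in EPZ4777. Runx1 rose by 1.15 ± 0.11 (adjusted p = 0.0244), passed in 12 of 15 alternatives, and all of its 6 probe sets had this sign. Averaged over them the difference was 0.63 (adjusted p = 0.0294). Cited2, which competes for a domain of p300 and CBP, rose by 0.65 ± 0.12 (adjusted p = 0.0383), and Foxo1, a forkhead factor, by 0.63 ± 0.13 (adjusted p = 0.0478), in 5 and 4 of 15 alternatives. Averaged over its 4 probe sets the Foxo1 difference was 0.31 (adjusted p = 0.303). In cells labelled shSirt1 0 of 14 passed, where 0.396% of all genes did, with a median of -0.096 and Runx1 at 0.64 ± 0.11 (adjusted p = 0.0764). Foxo1 there was lower with EPZ4777 in both codes, at 6.68 (A1) and 6.37 (A5) in DMSO and 6.30 and 6.25 in EPZ4777. Cited2 was higher in both codes, at 11.86 and 11.85 in DMSO and 12.12 and 12.16 in EPZ4777.

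Among 22 partners of the class IIa deacetylases 1 rose and 1 fell in shLUC cells, with a median of 0.024. Over all genes 3.98% passed there in either direction, and 1.62% passed upward. Mef2c, a MEF2 factor held in check by these enzymes, measured 9.55 and 9.97 in DMSO and 8.39 and 8.57 in EPZ4777, with -1.28 ± 0.23 (adjusted p = 0.0381, and called in 9 of 15 alternatives). Sik2, a kinase that phosphorylates class IIa deacetylases, rose by 0.79 ± 0.16 (adjusted p = 0.0469, and called in 6 of 15), with a difference of 0.41 when its 3 probe sets were averaged (adjusted p = 0.166). Of 16 bromodomain and YEATS readers 1 rose, the chromatin remodeller Smarca2 (0.97 ± 0.20, adjusted p = 0.0489, and called in 7 of 15), and 0 fell, with a median of -0.020. No gene of these last 2 lists passed in cells labelled shSirt1, against 0.396% of all genes. Mef2c there measured 9.12 and 9.23 in DMSO and 7.86 and 8.49 in EPZ4777 (adjusted p = 0.134), and Smarca2 differed by 0.80 ± 0.20 (adjusted p = 0.163). Sik2 measured 8.63 (A1) and 8.39 (A5) in DMSO and 8.32 and 8.60 in EPZ4777, lower in A1 and higher in A5.

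In the fit of group means, no gene passed in either arm among 10 other HATs, 6 other class I, II and IV deacetylases, 22 subunits of MYST complexes, 27 of the SIN3, NuRD and CoREST complexes, 4 of the NCoR and SMRT complex and 9 genes of acetyl-CoA supply. Their medians in shLUC cells were -0.16, -0.18, -0.090, 0.034, 0.027 and -0.28. Of the other HATs, Gtf3c4 (-0.57 ± 0.24) and the nuclear receptor coactivator Ncoa3 (0.54 ± 0.12, adjusted p = 0.0565) had the largest differences. Of the other deacetylases, the class IIa enzymes Hdac9 (0.38 ± 0.25) and Hdac4 (0.35 ± 0.31) did, and in cells labelled shSirt1 they measured 0.78 ± 0.25 (adjusted p = 0.230) and 0.75 ± 0.31 (adjusted p = 0.310). Hdac9 lay at 4.02 to 5.24, against array medians of 5.21 to 5.27 over all probe sets, so it was not shown to be above background. Acss1, the mitochondrial acetyl-CoA synthetase, had the largest difference of its list in cells labelled shSirt1, -1.39 ± 0.45 (adjusted p = 0.229). It measured 7.28 (A1) and 5.98 (A5) in DMSO and 5.61 and 4.87 in EPZ4777. The median of the 9 acetyl-CoA genes there was -0.33, against 0.011 for all genes, and the mean of all 9 was lower in EPZ4777. The groups did not overlap for 7 of them, against 49.0% of all genes. For Acss2, the cytosolic and nuclear synthetase, the codes moved in opposite directions, from 7.20 to 5.65 in A1 and from 5.13 to 6.35 in A5. The A1 array in DMSO, the highest for Acss1 and Acss2, is the one with the raised sum of stroma markers. Between the hairpin labels, 0 genes of the 10 lists passed in either agent, where 0% of all genes passed in DMSO and 0.308% in EPZ4777.

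**Figure D4:**
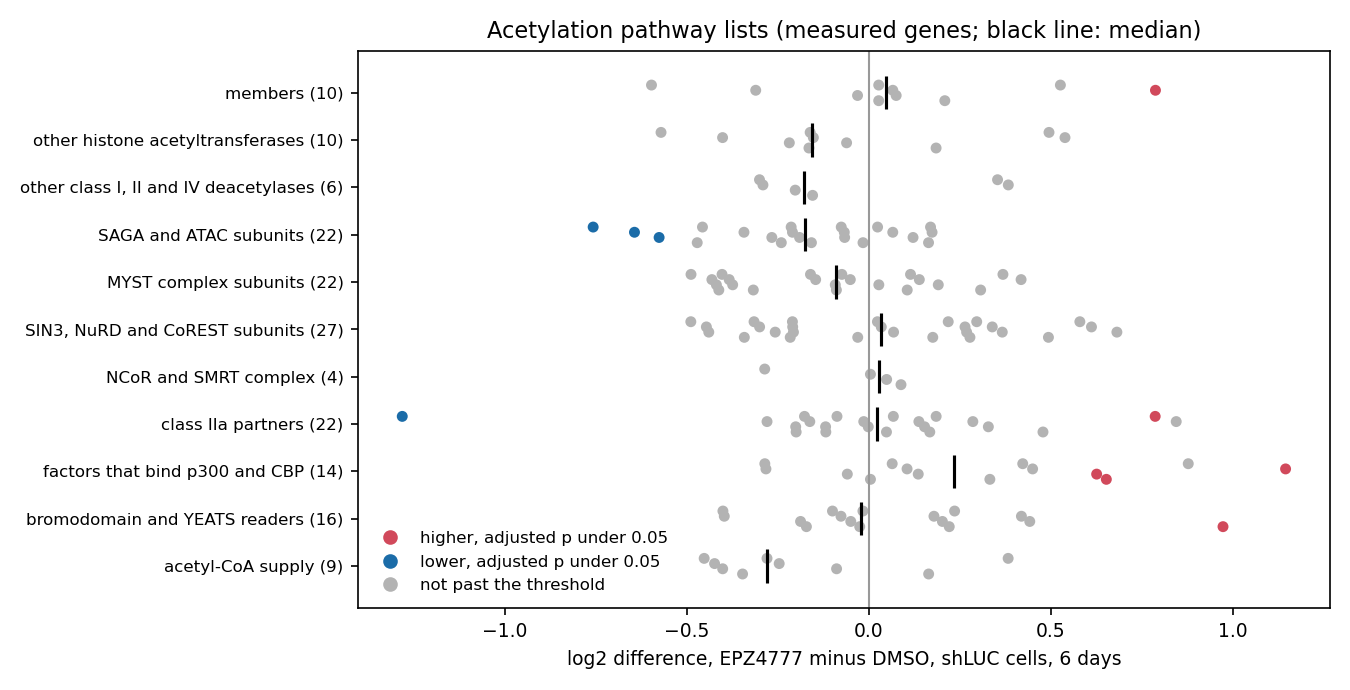
Log2 difference between EPZ4777 and DMSO in shLUC cells after 6 days (horizontal axis) for each measured gene of 11 lists, with the number measured in brackets; red and blue points passed upward and downward at adjusted p under 0.05 and black lines are medians. The 3 blue SAGA and ATAC points are Tada2a, Usp22 and Supt3, and the single red member is Ep300.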

How the data were processed

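The deposited values are linear intensities of 45101 Affymetrix probe sets on 8 mouse arrays; per the submitters' processing notes the authors made them with RMA (version not given in the sources used here). RMA quantile-normalizes arrays, so a shift of all genes would not be visible. Their log2 was used as it stands (array medians 5.21 to 5.27). After 64 control probe sets, 34945 had 1 gene symbol, 932 had several and 9160 were not listed in the platform annotation; 18193 genes were tested, each on its probe set of highest mean log2. Group means were fitted to all 8 arrays in limma 3.58.1 (R 4.3.3), with Benjamini-Hochberg adjustment over all genes and a threshold of 0.05; the same fit was run on all probe sets, and the test was checked on simulated data. An exact permutation test of 2 arrays against 2 cannot go below 0.333. Members were named throughout; from each list, at most 4 genes past the threshold, or else at most 2 with the largest differences, and for the 2 members of widest range the 5 closest profiles. Members and lists were chosen with earlier results of these data known. List genes without a gene row, 12 of 219, were not analysed here. The alternatives were limma-trend, quantile normalization, median centring, a filter on low genes, averaging the probe sets of each gene, only the arrays compared, the title code as a replicate block, leaving out each array and, chosen after seeing the data, leaving out both arrays of A1 or of A5.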

Additional observations from a re-analysis of the deposited data

How the results depend on the processing

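Of 800 member values under 17 alternatives, 789 kept their call and 11 changed it, all in shLUC cells: Ep300 in 9 and Kat2a in 2. In 45 cases a value that was not called changed sign, and no called value did. Genes called in shLUC cells numbered 1318 after median centring (281 higher, 1037 lower, against 295 and 429 without), 1424 among genes above the median level (493 higher, 931 lower), 402 with only the arrays compared, and 600 after quantile normalization (336 higher, 264 lower). Members called there were 2 among genes above the median level and 0 with only the arrays compared. Median centring moved shLUC EPZ4777 minus DMSO by 0.089. With only the arrays compared, cells labelled shSirt1 gave 0 genes and the hairpin labels in EPZ4777 gave 14. With the title code as a replicate block, 1316 genes were called in shLUC cells (660 higher, 656 lower), 404 in cells labelled shSirt1 and 3 for the difference between the arms, and no member changed its call. In the acetylation lists the block added Ncoa3 (adjusted p = 0.0456), Phf21a (0.0375), Rcor3 (0.0363), Arid4b (0.0388) and Cebpa (0.0313), all higher in shLUC cells, and Acss1 (0.0283), lower in cells labelled shSirt1, and Tada2a (0.0524) no longer passed; among markers it added Nkg7 in both arms (0.0127 and 0.0121), and it called 4 of 11 mature neutrophil markers in the shLUC arm and 5 in the other, all higher. The deviations of same-code arrays from their group means correlated at 0.293 in shLUC and 0.378 in cells labelled shSirt1. For A4 with A1 they correlated at 0.040 in DMSO and 0.401 in EPZ4777. With 2 arrays per group the deviations mirror each other, so A4 with A5 has the same sizes with the opposite sign. The check therefore cannot decide whether the codes pair the arrays, and the code served as a block only as an alternative. Without both A1 arrays, cells labelled shSirt1 gave 14 genes and the hairpin labels in EPZ4777 gave 129; without both A5 arrays, cells labelled shSirt1 gave 145, the difference between the arms 69 and the hairpin labels in DMSO 203. Leaving out 1 array gave 0 to 1031 genes in shLUC cells, 0 to 205 in cells labelled shSirt1, 0 to 89 for the difference, 0 to 155 between hairpin labels in DMSO and 0 to 73 in EPZ4777, and 0 to 1 members in shLUC cells and 0 to 0 in the other 4 comparisons. A lone array left in a group was then assumed to vary like the other groups. The cause of these changes was not tested. With 2 arrays per group the number of arrays limits the precision.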
